A study of Mus musculus with 14 samples.

Results

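The 93 genes described here carry the names of cytoplasmic ribosomal proteins. They were matched by symbol alone, as Rpl or Rps followed by a number with optional letters, or as Rpsa, Rplp0, Rplp1 or Rplp2, leaving out the Rps6 kinases. The set was chosen with earlier results of these data known. They are 93 of the 55335 genes counted: 55 name large subunit proteins, 37 name small subunit proteins, and Rps19bp1 fits the pattern but encodes a protein that binds Rps19 and is not part of the ribosome. GENCODE annotates 86 of them as protein coding and 7 as processed pseudogenes, 2 of which are transcribed. RNA of single cells was counted in whole spinal cord from mice aged P115-120 days, dissociated with enzymes and cleared of myelin, as 14 libraries. The SOD1G93A group (n = 3) was strain B6SJL-Tg(SOD1*G93A)1Gur/J, which carries a mutant human SOD1 transgene and develops motor neuron disease. The SOD1G93A/Clec7a-KO group (n = 4) carried that transgene and lacked Clec7a, a receptor of myeloid cells. The Clec7a-KO group (n = 4) was strain B6.129S6-Clec7atm1Gdb/J without the transgene. The nTg group (n = 3) had neither change. The strain labels differ between the groups, so strain background and genotype cannot be told apart. The labels do not say whether a library came from 1 animal, and p-values then measure only the spread between these libraries.

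A ribosome joins a small subunit, which reads the mRNA, to a large subunit, which forms the peptide bond, and nearly all of their proteins are present in 1 copy each. Ribosomal protein mRNAs are among the most abundant of any cell, and most begin with a tract of pyrimidines (the 5′ terminal oligopyrimidine tract) through which TOR signalling sets how well they are translated. Growing and activated immune cells are known for making many ribosomes. The counts here are of mRNA, not of ribosomes. Because the proteins are needed in equal numbers, these genes are often treated as 1 block, and the spread among them is seldom shown.

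Short stretches near the annotated start are shown first for genes chosen among those that hold CTTTCC, a pyrimidine run found there in some members, some of them called and some not called in the comparisons that follow. The RefSeq promoter table (GRCm38.p6, 250 bases before to 50 after each start) held 68 of the 93 members, with 80 promoters. CTTTCC on the gene's strand, within 50 bases of the start on either side, stood in 24 of these 80 promoters (30% against 4.69% of all 32851 promoters), which belong to 21 members. Each window is 30 bases, 5′ to 3′ on the gene's strand, with CTTTCC in capitals. Its first base lies 22 bases after the annotated start in Rpl10a, 35 in Rpl19 and 26 in Rpl26, whose windows lie wholly after that start. Rpl10a and Rpl19 passed the test in microglia in both transgene contrasts, Rpl38 in 1 of them, and Rpl26, Rps27 and Rps27rt in neither.
Rpl10a (chr17:28328576-28328605, + strand): gctctgccttCTTTCCggtttccgcggcag
Rpl19 (chr11:98026944-98026973, + strand): gcggcccacaagctCTTTCCtttcgctgct
Rpl38 (chr11:114668570-114668599, + strand): aagcctcgttCTTTCCccgttctcttcggt
Rpl26 (chr11:68901581-68901610, + strand): gtgtagttctCTTTCCttttgcggccatcg
Rps27 (chr3:90213628-90213657, - strand): gctttcgctcCTTTCCggcggtgacgacct
Rps27rt (chr9:114982720-114982749, - strand): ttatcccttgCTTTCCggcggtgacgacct
The windows of Rps27 and of its retrogene Rps27rt share their last 20 bases. Whether the counting split reads between these genes was not tested, and their values are uncertain. CTTCCG, the core bound by ETS factors, stood on either strand of the 300 bases in 58.8% of the members' promoters and 16.9% of all promoters. AAGATGG, a YY1 core, stood in 15% and 6.34%. In microglia, the 21 tested members with CTTTCC in the inner window had a median log2 difference of 0.31 between SOD1G93A and nTg and of 0.88 between SOD1G93A/Clec7a-KO and Clec7a-KO, and the 44 tested members in the table without it had 0.56 and 0.90. With CTTTCC sought on the gene's strand over all 300 bases, the 27 tested members with it had 0.40 and 0.93. The 38 without it had 0.42 and 0.85. A match is a description of letters in a window, not of a site.

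The libraries held 108892 barcodes, of which 90018 were kept. Total UMIs (unique molecular identifiers, counted molecules) lay between 28819852 and 141204910 per library, and the median barcode of a library had 5190.5 to 14886 UMIs. Clec7a in microglia followed the labels: 827 to 920 CPM (UMIs scaled to the same library total) in SOD1G93A, 36.4 to 105 in nTg, and 0.963 to 3.05 in the 8 knockout libraries. Sod1 stood at 1498 to 2507 CPM in the transgenic libraries and 38.4 to 114 in the others. Of the 107376 distinct barcode sequences, 1504 occurred in more than 1 library. Cells were grouped into 25 clusters named from fixed marker genes, so "microglia" and the other class names stand for microglia-like clusters and so on: 50624 cells were microglia, 11697 endothelial cells, 7700 ependymal cells, 5845 astrocytes, 3916 oligodendrocyte precursors, 1751 mural cells, 1239 neurons and 745 T and NK cells, and 6402 cells stayed unnamed. All defining markers of each tested class were above 0 in every library. No member was among the variable genes that built the clusters.

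Ribosomal protein mRNAs took very different shares of the RNA of each cell class. The share, the members' UMIs as a percent of all UMIs of a class in a library, was 24.8% ± 4.20 (SD, n = 14) in T and NK cells, with 18.8% in the lowest library and 31.6% in the highest. Microglia followed with 11.6% ± 1.76. Endothelial cells stood at 7.24% ± 0.762, ependymal cells at 5.69% ± 0.548, mural cells at 5.03% ± 0.787, oligodendrocyte precursors at 4.61% ± 0.676 and astrocytes at 3.12% ± 1.24. Neurons stood at 5.06% ± 1.23 in the 13 libraries that held at least 10 of them. The ranges of ependymal cells, mural cells, oligodendrocyte precursors and neurons overlapped, while T and NK cells lay above microglia, microglia above endothelial cells, and endothelial above ependymal cells within each of the 14 libraries.

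**Figure D1:**
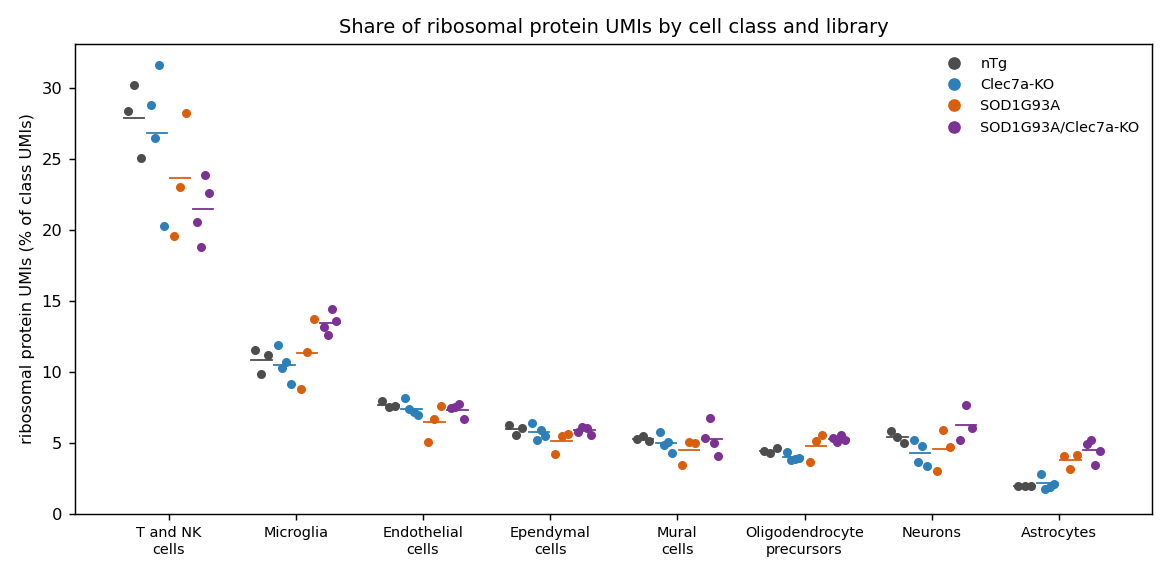
Share of ribosomal protein UMIs (percent of the class's UMIs, vertical axis) by cell class, with 1 point per library coloured by group and a bar at each group mean. T and NK cells lie highest at 18.8% to 31.6%, microglia between 8.81% and 14.4%, and astrocytes have the lowest mean, with the transgenic libraries above the others.

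Most single members had the same highest and lowest class. Of the 83 members above 100 CPM in their highest class, by the mean over all libraries, 81 were highest in T and NK cells and 78 were lowest in astrocytes. That mean joins groups whose astrocyte shares differed, and in SOD1G93A replicate 1 and SOD1G93A/Clec7a-KO replicate 2 the share of astrocytes was above that of oligodendrocyte precursors (4.08% against 3.64% and 5.19% against 5.03%). The exceptions at the top were Rps27l, highest in oligodendrocyte precursors at 254 CPM, and Rps4l, highest in mural cells at 177 CPM. Levels are CPM of the class, not divided by gene length. Rps27, a small subunit protein with a zinc finger, ranged most: 4445 CPM in T and NK cells against 286 in astrocytes, a ratio of 15.5. Rpl12, a large subunit protein at the base of the stalk, stood at 5653 against 383 CPM and Rps24 at 9220 against 626, both ratios of 14.7. Rps27rt stood at 177 against 12.4 CPM and Rps15a at 4186 against 319. Rpl31, at 501 against 178 CPM, ranged least among these members, by a ratio of 2.8. Over all kept cells the most abundant members included Rplp1 at 2896 CPM, Rps29 at 2542, Rps24 at 2430 and Rps12 at 2167. The least were Rpl10l with a single UMI in all cells, Rpl3l with 74, Rps12l1 with 99, Rpl32l with 585 and Rps3a3 with 1125.

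In microglia the called members all rose: 26 rose in SOD1G93A against nTg and 54 rose in SOD1G93A/Clec7a-KO against Clec7a-KO, and none fell, while 16 and 3 of the tested members had a log2 difference below 0. Of the 93 members, 89 passed the filter on low counts and were tested, among 16621 genes. In the first contrast 20% of all genes tested rose and 13.2% fell (33.2% in either direction), and in the second 25.7% rose and 20.9% fell (46.6% in either direction). The median log2 difference of the tested members was 0.48 and 0.88, where that of all genes tested was 0.01 and 0.00. The test was edgeR's quasi-likelihood test on UMIs summed per library and class, at a Benjamini-Hochberg adjusted p under 0.05 over all genes. The contrasts share no library: 25 members were called in both, Rpl4 was called in the first alone, 72 were positive in both, and the correlation of the log2 differences across the 89 members was 0.39 (Pearson) or 0.36 (Spearman). The large subunit gave 18 and 32 calls of 52 tested, the small subunit 7 and 21 of 36, and Rps19bp1, outside the ribosome, rose by 0.67 (SE 0.17) and 0.95 (SE 0.15). With library totals in place of TMM scaling, which moved the median of all genes to -0.45 and -0.51, 11 members rose in the first contrast (9.21% of all genes) and 19 rose and 1 fell in the second (11.4% of all genes rose), with members' medians of 0.01 and 0.35. With the library number of the labels as a covariate, 39 and 70 rose (25.2% and 30.2% of all genes); the number runs lower in SOD1G93A (1, 5 and 6) than in nTg (8, 9 and 12), and its part was not tested otherwise.

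Of the proteins of the stalk, which recruits elongation factors to the large subunit, Rplp0 passed the test in both contrasts, Rplp2 in the second and Rplp1 in neither; their differences from each other were not tested. Rplp0, the scaffold of the stalk, stood at 1144, 1085 and 1101 CPM in nTg and 3188, 2406 and 2203 CPM in SOD1G93A (CPM scaled by TMM factors here and in what follows). In Clec7a-KO it stood at 1314, 1336, 1126 and 1278 CPM and in SOD1G93A/Clec7a-KO at 2517, 2832, 2886 and 2648 CPM. All 7 transgenic libraries lay above all 7 others. The log2 difference was 1.23 (SE 0.17, adjusted p 0.00011) in the first contrast and 1.11 (SE 0.15, adjusted p 4e-05) in the second. Rplp1, a small acidic protein of the stalk, overlapped between groups, at 3170, 3001 and 3385 CPM in nTg against 2373, 3714 and 4884 in SOD1G93A. Its log2 differences were 0.20 (SE 0.28, adjusted p 0.61) and 0.48 (SE 0.24, adjusted p 0.12), and both turned negative with library totals. Rplp2, its partner, had 0.25 (SE 0.29, adjusted p 0.54) in the first contrast, a value that was -0.22 with library totals, -0.13 in the clusters led by P2ry12 and Tmem119 and -0.18 without SOD1G93A replicate 3, and rose by 0.88 (SE 0.25, adjusted p 0.011) in the second.

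Among the other large subunit proteins, Rpl10a, of the L1 stalk where spent tRNA leaves, had the tightest groups. It stood at 610, 621 and 672 CPM in nTg and 682, 655, 603 and 581 in Clec7a-KO, against 1375, 1528 and 1405 in SOD1G93A and 1478, 1892, 1700 and 1524 in SOD1G93A/Clec7a-KO. All 7 transgenic libraries lay far above the other 7, and the latter differed little among themselves. Rpl10a rose by 1.18 (SE 0.15, adjusted p 6.1e-05) and 1.39 (SE 0.13, adjusted p 2.1e-06). Rpl19, which bridges the subunits, rose by 1.10 (SE 0.18) and 1.18 (SE 0.15), and Rpl8, near the catalytic centre, by 1.03 (SE 0.21) and 1.06 (SE 0.18). Rpl6l, annotated as a processed pseudogene of Rpl6, rose by 1.46 (SE 0.31) and 1.07 (SE 0.27) at only 4.14 to 21.5 CPM, and reads of Rpl6 could be counted for it. Its percent of the UMIs of Rpl6 and Rpl6l in microglia, by rising library number, was 1.52, 1.15 and 1.09 in SOD1G93A. In nTg it was 0.908, 0.679 and 0.475, in SOD1G93A/Clec7a-KO 1.18, 1.26, 0.610 and 0.370, and in Clec7a-KO 1.18, 1.02, 0.429 and 0.410. In endothelial cells it was 1.70, 1.18 and 0.886 in SOD1G93A and 0.839, 0.772 and 0.444 in nTg. Apart from the covariate above, the part of the library number in this rise was not tested.

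Rpl41, Rpl38 and Rpl39l were called in the second contrast alone. Rpl41, the smallest ribosomal protein, stood at 973, 1625 and 2688 CPM in SOD1G93A against 1136, 974 and 1616 in nTg, a log2 difference of 0.50 (SE 0.39, adjusted p 0.34). In SOD1G93A/Clec7a-KO it stood at 2250, 2891, 5576 and 4769 CPM, above all Clec7a-KO libraries at 1088, 838, 1442 and 1617, and it rose by 1.64 (SE 0.35, adjusted p 0.0017). Rpl38, known for a part in the translation of Hox mRNAs, had 0.30 (SE 0.51, adjusted p 0.69) and 1.28 (SE 0.45, adjusted p 0.031), though its groups overlapped in both. Rpl39l, a copy of Rpl39, rose by 1.67 (SE 0.38) in the second contrast at 1.33 to 8.45 CPM. Rpl32 rose in both, by 0.88 (SE 0.28, adjusted p 0.025) and 1.24 (SE 0.24, adjusted p 0.00093). Rpl5 and Rpl11, which with 5S RNA bind the p53 inhibitor Mdm2, rose by 0.63 (SE 0.18) and 0.40 (SE 0.16), and by 0.57 (SE 0.20) and 0.93 (SE 0.18). Rpl9 rose by 0.72 (SE 0.21) and 0.85 (SE 0.18).

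Among small subunit proteins, Rpsa, Rps2 and Rps3 rose in both contrasts. Rpsa, also known as a laminin receptor, stood at 1018, 977 and 981 CPM in nTg and 1145, 1022, 958 and 1531 in Clec7a-KO, against 2891, 2240 and 2018 in SOD1G93A and 2366, 2967, 3693 and 3603 in SOD1G93A/Clec7a-KO. The transgenic libraries all lay above the others, and Rpsa rose by 1.26 (SE 0.23, adjusted p 0.00075) and 1.44 (SE 0.20, adjusted p 4.9e-05). Rps2, at the entry of the mRNA channel, rose by 1.20 (SE 0.26) and 1.39 (SE 0.22), and its neighbour Rps3 by 0.91 (SE 0.16) and 0.86 (SE 0.14).

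Other small subunit members did not pass. Rps6, the target of S6 kinase, had 0.66 (SE 0.41, adjusted p 0.24) and -0.29 (SE 0.35, adjusted p 0.52). Rps29 had -0.04 (SE 0.33) and 0.44 (SE 0.28), and Rps14 had 0.76 (SE 0.46) and 0.94 (SE 0.40). Rps19, mutated in Diamond-Blackfan anaemia, had 0.05 (SE 0.37) in the first contrast and rose by 0.88 (SE 0.32, adjusted p 0.038) in the second. Rps27a, made as a fusion with ubiquitin, had 0.45 (SE 0.30) and rose by 0.97 (SE 0.26, adjusted p 0.008). Rps27 and Rps27rt were the only tested members below 0 in both contrasts, with Rps27 at -0.32 (SE 0.42) and -0.05 (SE 0.36) and Rps27rt at -0.74 (SE 0.66) and -0.14 (SE 0.57). Leaving out SOD1G93A replicate 1 turned Rps27 to 0.00 in the first contrast, and leaving out Clec7a-KO replicate 3 turned it to 0.17 and Rps27rt to 0.25 in the second.

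**Figure D2:**
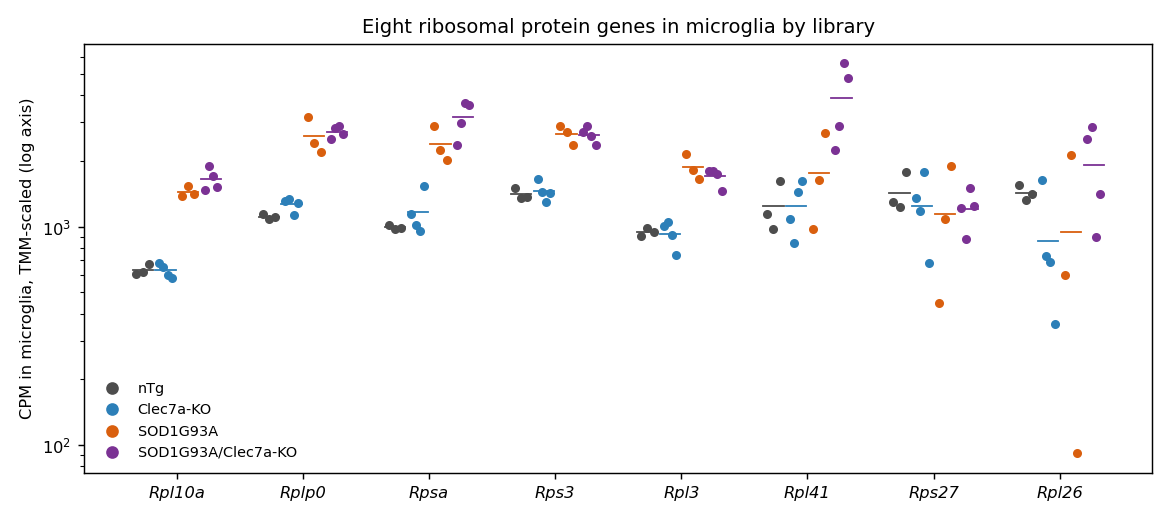
CPM in microglia (TMM-scaled, log axis) of 8 members, with 1 point per library coloured by group and a bar at each group mean. Rpl10a, Rplp0, Rpsa, Rps3 and Rpl3 show all transgenic libraries above the others, while Rps27 and Rpl26 show groups that overlap, with Rpl26 at 91.7 CPM in 1 SOD1G93A library.

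No member passed the test for loss of Clec7a in microglia. In SOD1G93A/Clec7a-KO against SOD1G93A, edgeR called 0 of the 89 members (0.018% of all genes) and DESeq2 called 0, while 26 had an unadjusted p under 0.05 in edgeR and the lowest adjusted p was 0.44. The median difference of the members was 0.37, and 72 were positive. The count at an unadjusted p, this median and the 72 are not set against all genes here and are descriptions only. In Clec7a-KO against nTg, edgeR and DESeq2 called 0 (0.0301% of all genes in edgeR), none had an unadjusted p under 0.05, and the median was 0.02. The difference of the transgene contrasts was called for 0 members by either tool (0% of all genes in edgeR), with 2 at an unadjusted p under 0.05, so the higher count of calls without Clec7a is not shown to be a larger response.

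The share of ribosomal protein UMIs in microglia shows how wide the SOD1G93A group was. Its libraries stood at 8.81%, 11.4% and 13.8%, a range that covers all 3 nTg libraries at 11.6%, 9.83% and 11.2%. The SOD1G93A/Clec7a-KO libraries stood at 13.2%, 12.6%, 14.4% and 13.6%, above all Clec7a-KO libraries at 11.9%, 10.2%, 10.7% and 9.14%. These shares are a description of summed members with no test. Microglia with P2ry12 and Tmem119, markers of resting microglia, among their leading genes held 94.6% to 98.3% of microglia in libraries without the transgene and 4.64% to 17.0% in those with it. Within those clusters alone, 6 of 89 members rose in SOD1G93A against nTg (median log2 difference 0.16, with 4.08% of all genes higher) and 11 in SOD1G93A/Clec7a-KO against Clec7a-KO (median 0.48, with 6.44%). In some libraries these cells came from different clusters. Cluster 9 held 2197 of the 2370 of nTg replicate 1 and 882 of the 927 of nTg replicate 3. It held 1173 of the 1257 of Clec7a-KO replicate 3 and 98 of the 132 of SOD1G93A/Clec7a-KO replicate 4. It held none of those of the SOD1G93A libraries, which lay in clusters 2 and 5. Those of nTg replicate 2 (845 and 1044 of 1890) and of Clec7a-KO replicates 1, 2 and 4 also lay nearly all in clusters 2 and 5. Among the other microglial clusters of the transgenic libraries, 1 led by Gpnmb and 1 led by Il1b and Cd74 had high shares, at 9.32% to 15.5% and 9.48% to 16.1%, and the cycling cluster lay between 7.42% and 12.3%. Genes known to respond to dissociation took 2.19% to 2.88% of microglial UMIs in transgenic libraries and 4.85% to 6.53% in the others, with 10 and 14 of 24 lower in the 2 contrasts and none higher. Their part in the members' change was not tested.

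Libraries of 1 group differed from each other more in these genes than in others (as medians, with no test), and largely alike across classes. In microglia the members' SD of log2 CPM between libraries of a group had a median of 0.44 over the 80 members above 100 CPM, against 0.24 over 1339 other genes above 100 CPM, which were not matched to the members on level. Rpl26, a protein at the tunnel exit, spread most, with an SD of 1.21, followed by Rpl36al at 0.96, Rps10 at 0.95 and Rpl24 at 0.86. In each group Rps10, Rpl24, Rpl36al and Rpl39 lay below the group mean in the libraries with the lower numbers in the labels. They lay above it in the others. The deviation of Rps10 was -1.12 in SOD1G93A replicate 1 and 1.14 in SOD1G93A/Clec7a-KO replicate 4. Rpl10a spread least, with 0.12, then Rps3 at 0.13, Rplp0 at 0.15, Rpl19 at 0.16, and Rpl7 and Rpl3 at 0.17. Members with short coding sequences spread more: the rank correlation of the SD with coding length across members was -0.62 in microglia, -0.61 in endothelial cells, -0.66 in ependymal cells and -0.68 in oligodendrocyte precursors. It was -0.41 in mural cells and -0.14 in astrocytes. These correlations are across genes, which are not independent.

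Rpl26 shows the pattern best. In microglia it stood at 91.7 CPM in SOD1G93A replicate 3 and between 360 and 2854 CPM in the other 13 libraries. The same library was lowest in endothelial cells at 49.3 CPM, where the others stood at 327 to 1517, and in oligodendrocyte precursors at 29.3 CPM, where the others stood at 185 to 860. The deviation of that library from its group mean was -2.41 (log2) in microglia, -2.40 in endothelial cells, -2.33 in ependymal cells and -2.43 in oligodendrocyte precursors. Its log2 difference in microglia was -0.59 (SE 0.76, adjusted p 0.58) in SOD1G93A against nTg and 1.16 (SE 0.67, adjusted p 0.17) in SOD1G93A/Clec7a-KO against Clec7a-KO. The first value was -2.03 without SOD1G93A replicate 2 and -0.046 without SOD1G93A replicate 3. Over the 79 members compared, the correlation of the 14 library deviations between microglia and endothelial cells had a median of 0.96, and it was above 0.9 for 60 of them. The medians were 0.96 with oligodendrocyte precursors, 0.94 with ependymal cells, 0.85 with mural cells and 0.67 with astrocytes. The classes of a library share its preparation and depth. The median member of SOD1G93A replicate 1 lay 0.71 below its group mean in microglia and 0.65 below in endothelial cells, and that of SOD1G93A replicate 3 lay 0.47 above in both.

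**Figure D3:**
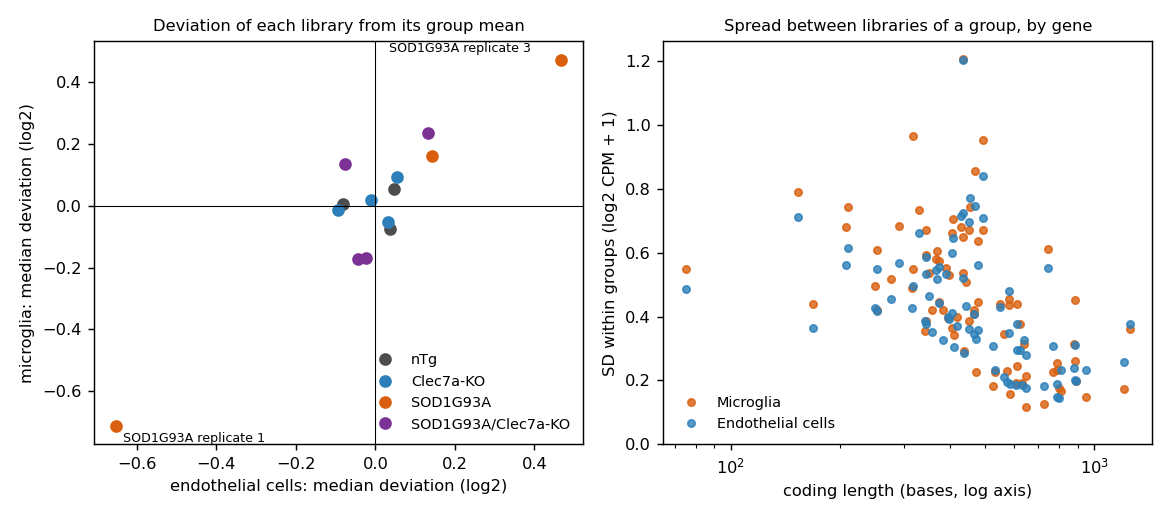
Left, the median deviation of the members from their group mean (log2) in microglia against that in endothelial cells, 1 point per library. Right, each member's SD between libraries of a group (log2 CPM + 1) against its coding length in bases on a log axis; SOD1G93A replicates 1 and 3 lie at -0.71 and 0.47 in microglia, and longer genes have the smaller SDs.

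Short and long members were called at different rates in SOD1G93A against nTg. The median coding length of the members with a length was 448.5 bases. Of 42 members at or under it, 2 were called in microglia in SOD1G93A against nTg, and of 42 above it, 22 were. In SOD1G93A/Clec7a-KO against Clec7a-KO these counts were 21 and 30. The rank correlation of the log2 difference with coding length was 0.68 in the first contrast and -0.01 in the second. In astrocytes 13 of 41 short and 37 of 42 long members were called in the first contrast and 32 and 35 in the second. Of all genes tested, 20% and 25.7% rose in microglia in the 2 contrasts, and 16.3% and 16.2% in astrocytes. The difference between short and long members was not tested.

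Each library holds its own reference in its other cell classes. Microglia were therefore compared with the endothelial cells of the same library, in 1 fit with a term for each library, and the transgene contrast of that difference was tested; this comparison was chosen after the shared deviations were seen. The test is of the signed difference: a member called higher had a more positive log2 difference in microglia than in endothelial cells, whichever class changed. Called higher were 79 of 86 members in SOD1G93A against nTg (20.2% of the 12550 genes tested were called higher) and 83 of 86 in SOD1G93A/Clec7a-KO against Clec7a-KO (24.3%), with none lower, and 79 were called in both. The median log2 difference was 0.63 and 0.84, where the members' median in endothelial cells alone was -0.30 and -0.03. The median SE fell to 0.13 and 0.12, where it had been 0.31 and 0.27 in microglia alone, and the correlation of the contrasts across members was 0.94. The spread of members around the median was also smaller, with an SD of 0.22 and 0.23 against 0.46 and 0.34. The contrasts differed in 0 members by edgeR (0% of all genes), with 2 at an unadjusted p under 0.05. Of the members at or under the median coding length, 40 and 40 of 41 were called, and of the longer 38 and 41 of 42. With library totals in place of TMM scaling, 39 were higher and 1 lower in the first contrast (9.37% of all genes higher) and 62 higher and 2 lower in the second (9.35%). The summed microglial markers in endothelial cells were 0.326% to 1.55% of their microglial level without the transgene and 1.82% to 5.43% with it.

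**Figure D4:**
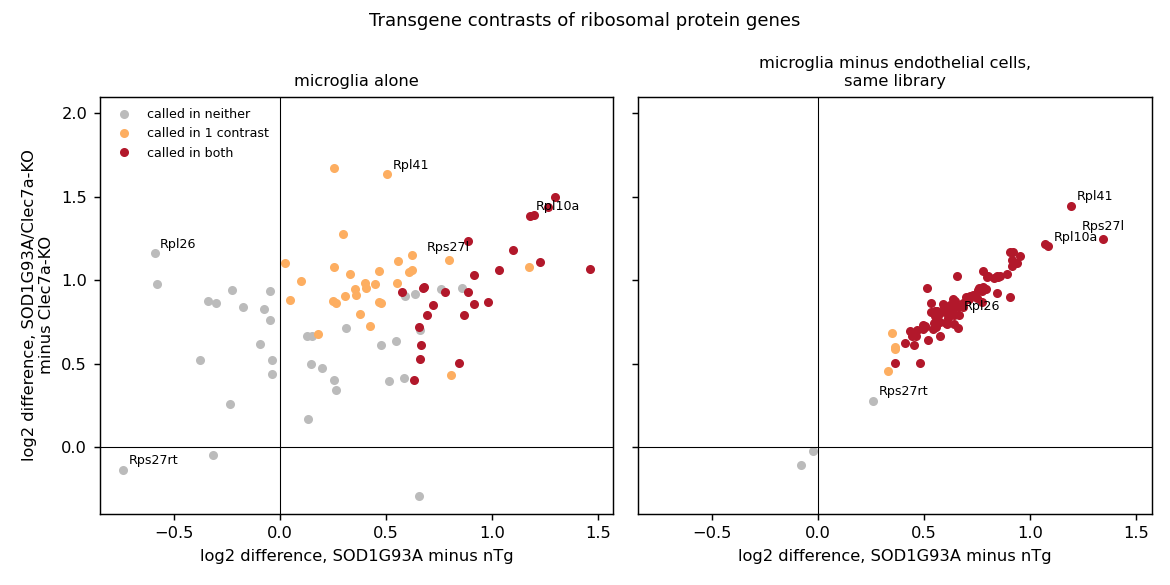
Log2 difference of each member in SOD1G93A/Clec7a-KO minus Clec7a-KO (vertical axis) against SOD1G93A minus nTg (horizontal axis), in microglia alone (left, 89 members) and as microglia minus endothelial cells of the same library (right, 86 members). Red points were called in both, orange in 1 and grey in neither; the correlation across members is 0.39 on the left and 0.94 on the right.

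Within libraries the largest differences were those of Rps27l, Rpl41, Rpl10a and Rpl38. Rps27l, a copy of Rps27 that p53 induces, had 1.34 (SE 0.13) and 1.25 (SE 0.11), and Rpl41 had 1.19 (SE 0.13) and 1.45 (SE 0.11). Rpl10a had 1.09 (SE 0.13) and 1.20 (SE 0.11): in endothelial cells it stood at 387 to 440 CPM in SOD1G93A and 397 to 432 in nTg, ranges that overlap. Rpl38 had 1.07 (SE 0.14) and 1.22 (SE 0.12). Rpl26, uncalled in microglia alone, had 0.66 (SE 0.13, adjusted p 0.00097) and 0.79 (SE 0.11, adjusted p 4.2e-05). Its first value sets -0.59 (SE 0.76) in microglia against -1.35 (SE 0.76) in endothelial cells, both below 0. Rps27 had 0.36 (SE 0.13, adjusted p 0.042) and 0.50 (SE 0.11), Rplp1 0.48 (SE 0.13) and 0.50 (SE 0.11), Rplp0 0.75 (SE 0.16) and 0.94 (SE 0.14), Rplp2 0.65 (SE 0.14) and 0.88 (SE 0.12), and Rps6 0.58 (SE 0.14) and 0.67 (SE 0.12). The members called in neither were Rpl7l1, at -0.03 (SE 0.11) and -0.02 (SE 0.10), Rps4l, at -0.08 (SE 0.18) and -0.11 (SE 0.16), and Rps27rt, at 0.26 (SE 0.13) and 0.28 (SE 0.11). Members called in the second contrast alone included Rpl37rt, Rps3a1 and Rps9.

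Other reference classes gave fewer calls for microglia. Against ependymal cells 65 and 81 members were higher (17.4% and 20.1% of all genes), and against oligodendrocyte precursors 29 and 47 were (17.3% and 20.3%). Against astrocytes no member was higher, and 7 and 2 were lower (12.9% and 13.8% of all genes lower).

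The ratio of the shares sets the same classes against each other as 1 value per library, without a test. It uses class totals without TMM scaling, so its size cannot be set beside the log2 differences of the fit. Microglia had 1.45, 1.31 and 1.47 times the ribosomal protein share of endothelial cells in nTg and 1.31 to 1.49 times in Clec7a-KO. In SOD1G93A the ratio was 1.74, 1.71 and 1.81, and in SOD1G93A/Clec7a-KO it was 1.67 to 2.05. The 7 transgenic libraries lay above the other 7. Against ependymal cells the ratio was 1.82 ± 0.046 in nTg (SD, n = 3) and 1.83 ± 0.13 in Clec7a-KO (n = 4), and 2.21 ± 0.21 in SOD1G93A (n = 3) and 2.30 ± 0.17 in SOD1G93A/Clec7a-KO (n = 4).

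**Figure D5:**
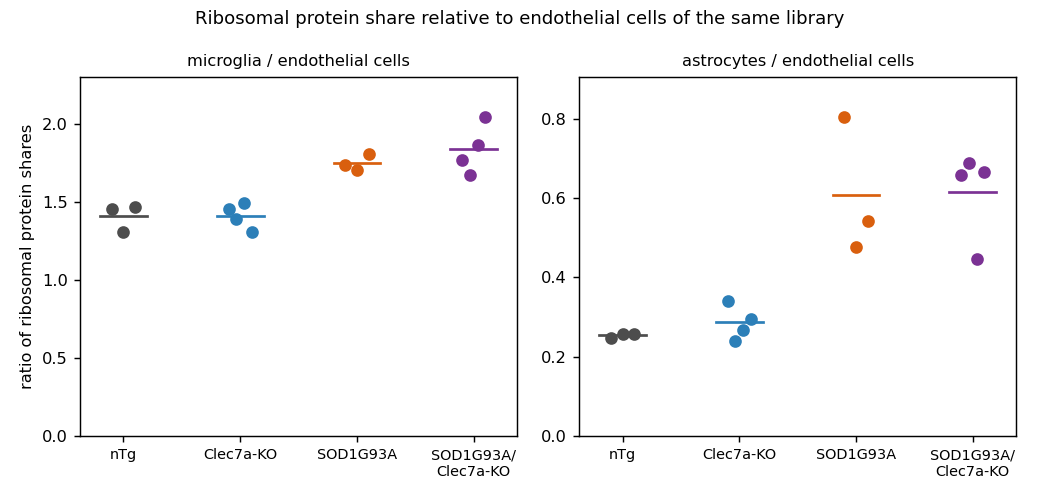
Ratio of the ribosomal protein share of microglia (left) and of astrocytes (right) to that of endothelial cells in the same library, 1 point per library with a bar at each group mean. Microglial ratios are 1.31 to 1.49 without the transgene and 1.67 to 2.05 with it; astrocyte ratios are 0.240 to 0.340 and 0.447 to 0.806.

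Most members also rose in astrocytes. Of 86 members tested, 52 rose in SOD1G93A against nTg (16.3% of all genes rose) and 69 in SOD1G93A/Clec7a-KO against Clec7a-KO (16.2%), none fell, and the medians were 0.87 and 0.92. Rplp0 stood at 163, 169 and 143 CPM in nTg and 269, 184, 172 and 148 in Clec7a-KO, against 1070, 465 and 526 in SOD1G93A and 704, 917, 320 and 454 in SOD1G93A/Clec7a-KO. It rose by 2.12 (SE 0.36, adjusted p 0.00048) and 1.64 (SE 0.31, adjusted p 0.001). Rps2 rose by 1.92 (SE 0.23) and 1.36 (SE 0.20). Rpl6l was called at 1.95 (SE 0.64) and 1.84 (SE 0.63), but it stood at 0 to 13.2 CPM.

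Microglial RNA was also higher in the astrocytes of the transgenic libraries. The summed level of 12 microglial markers in astrocytes was 0.633% to 1.06% of that in microglia in nTg and 0.558% to 6.45% in Clec7a-KO, and 4.34% to 19.0% in SOD1G93A and 4.69% to 23.3% in SOD1G93A/Clec7a-KO, with none of the 12 at 0 in any library. In astrocytes 14 and 15 of 24 dissociation genes rose in the 2 contrasts. Their part in the astrocyte result was not tested. Within libraries, astrocytes against endothelial cells gave 81 and 83 members higher (11.4% and 9.55% of all genes), and astrocytes against ependymal cells 81 and 81 (12.4% and 10.6%). The difference was more negative in microglia than in astrocytes for 7 of 86 members in the first contrast, Rpl13a, Rpl35a, Rplp1, Rps19, Rps27, Rps3 and Rps4l, and for Rpl13a and Rplp1 in the second; the members' shares, 8.14% and 2.33%, lay below the 12.9% and 13.8% of all genes.

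Oligodendrocyte precursors gave fewer calls. Of 87 members tested, 4 rose in the first contrast (1.26% of all genes) and 13 in the second (2.81%), with medians of 0.10 and 0.45. Rpsa stood at 572, 567 and 642 CPM in nTg against 1180, 1039 and 929 in SOD1G93A, and rose by 0.82 (SE 0.19, adjusted p 0.035) and 1.07 (SE 0.17, adjusted p 0.0018). Rplp0 rose by 1.01 (SE 0.17) and 0.91 (SE 0.15), and Rps3 by 0.86 (SE 0.16) and 0.81 (SE 0.14). Rpl8 had 0.81 (SE 0.21, adjusted p 0.066) and rose by 0.94 (SE 0.18, adjusted p 0.0094). Microglial markers in these cells summed to 0.284% to 1.55% of their microglial level without the transgene and 1.23% to 3.87% with it, and their part was not tested. DESeq2 called 12 and 20 members here (1.97% and 4.14% of all genes higher). Within libraries, 6 and 64 members had a more positive difference in these cells than in endothelial cells (0.873% and 3.07% of all genes), whose own medians were -0.30 and -0.03. Of the calls in precursors alone, the first count was 2 without SOD1G93A replicate 1, nTg replicate 1 or nTg replicate 2 and 1 without SOD1G93A replicate 2. The second count was 7 without Clec7a-KO replicate 2 or 3 and 20 without SOD1G93A replicate 1.

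In endothelial, ependymal and mural cells edgeR with its low-count filter called no member in either contrast. Without the filter it called members lower: 9 and 1 in endothelial cells (0.362% and 0.556% of all genes lower), 18 and 2 in ependymal cells (0.579% and 0.693%), where 1 was also higher in the first contrast, and 2 and 1 in mural cells (0.0881% and 0.205%). With the replicate block, 1 was lower in endothelial cells, and 2 were lower and 1 higher in ependymal cells, all in the first contrast. In endothelial cells the medians were -0.30 and -0.03, with 12 and 4 of 86 members at an unadjusted p under 0.05, 0 called by DESeq2, and 0.913% and 0.928% of all genes called in either direction. In ependymal cells they were -0.20 and 0.03, with 12 and 4 of 87 members, 0 and 1 called by DESeq2, and 0.832% and 1.42% of all genes. In mural cells they were -0.34 and 0.09, with 12 and 5 of 85 members, 0 called by DESeq2, and 0.106% and 0.704% of all genes. These percents are of adjusted calls, and the counts at an unadjusted p are not set against those of all genes.

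Paralogs of ribosomal proteins were used to different degrees by the classes, given here as the paralog's percent of the UMIs of the pair over libraries. Rps27l took 42.4% ± 6.31 of the Rps27 and Rps27l pair in oligodendrocyte precursors, 32.3% ± 7.17 in astrocytes, 15.9% ± 2.60 in endothelial cells, 10.8% ± 4.13 in microglia and 3.31% ± 1.93 in T and NK cells (SD, n = 14). In microglia it was 6.15%, 7.31% and 5.46% in nTg and 7.08%, 7.80%, 5.40% and 11.9% in Clec7a-KO, against 13.9%, 13.9% and 11.3% in SOD1G93A and 15.1%, 17.0%, 13.95% and 15.3% in SOD1G93A/Clec7a-KO. Only 1 Clec7a-KO library reached the lowest SOD1G93A library. Rps27l itself had log2 differences of 0.79 (SE 0.29, adjusted p 0.0502) and 1.12 (SE 0.26, adjusted p 0.0027) in microglia.

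Rpl22l1 took 65.6% ± 10.2 of the Rpl22 pair in neurons (n = 13), 40.6% ± 5.12 in ependymal cells, 38.2% ± 8.05 in astrocytes, 21.5% ± 3.44 in microglia and 18.7% ± 3.09 in endothelial cells. Rpl7l1, a protein of ribosome assembly, took 20.2% ± 3.37 of its pair in oligodendrocyte precursors, 6.62% ± 1.42 in microglia and 2.98% ± 1.47 in T and NK cells. In microglia it stood at 54.8 to 74.7 CPM in all libraries, with log2 differences of 0.13 (SE 0.12) and 0.17 (SE 0.10), while Rpl7 rose by 0.84 (SE 0.17) and 0.51 (SE 0.15). Rps4l, annotated as a pseudogene, took 16.2% ± 3.86 of its pair with Rps4x in mural cells, 13.6% ± 2.96 in ependymal cells and 1.88% ± 0.492 in microglia. Rpl36al took 22.4% ± 7.17 in oligodendrocyte precursors and 13.6% ± 4.80 in microglia. Rpl39l took 0.209% ± 0.102 of its pair in microglia and Rpl3l, known from muscle, 0.545% ± 0.608 of its pair in astrocytes, from 39 UMIs, and 0.00271% ± 0.00375 in microglia, from 15 UMIs. Near-identical copies can take each other's reads, and these percents carry that limit.

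The rest of the translation machinery was read from lists, against the same shares of all genes in microglia (20% and 25.7% higher). Of the ribosomal proteins outside the naming rule, Rack1, a scaffold on the small subunit, rose by 1.33 (SE 0.32) and 1.20 (SE 0.28) in microglia, and Fau, made as a fusion with a ubiquitin-like protein, had 0.37 (SE 0.31) and rose by 1.06 (SE 0.27). Of 9 elongation factors and other mRNAs with a pyrimidine tract, 5 and 6 rose and none fell (medians 0.83 and 0.93). Eef1b2, Eef1d, Eef1g and Eef1a1, of the eEF1 complex, were called in both contrasts, with Eef1g at 1.40 (SE 0.25) and 1.18 (SE 0.22). Tpt1, Pabpc1 and Hnrnpa1 were called in neither, and Vim, an intermediate filament, rose by 3.84 (SE 0.33) and 4.11 (SE 0.29).

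Of 30 initiation factors, 18 rose in the first contrast and 17 rose and 2 fell in the second (medians 0.62 and 0.64). Eif3k and Eif3i of the eIF3 complex had 1.27 and 1.25 in the first contrast and 1.44 and 1.37 in the second. Of 35 biogenesis genes 10 rose and 1 fell, then 16 rose and 2 fell (medians 0.33 and 0.29), with Rrs1, which brings in the 5S particle, at 1.05 and 1.13 and Npm1, a nucleolar chaperone, at 0.94 and 0.93. Of 77 tested mitochondrial ribosomal protein genes 48 and 61 rose and none fell (medians 0.57 and 0.76), led in the second contrast by Mrpl54 at 1.52 and Mrpl12 at 1.39. Of 18 genes of TOR and Myc control 3 rose and 2 fell, then 3 rose and 5 fell (medians -0.07 and 0.03). Eif4ebp1, the TOR target that holds back initiation, rose by 1.20 (SE 0.17) and 1.39 (SE 0.15), Mycl fell by 3.16 and 3.35 on the log2 scale, and Mtor was called in neither contrast, with 0.40 (SE 0.28) and 0.33 (SE 0.24).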

How the data were processed

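The deposited values were raw UMI counts per gene and barcode, 1 matrix for each of the 14 libraries, unnormalized by the authors. Per the submitters' processing notes the tools were Cell Ranger, Seurat and DESeq2 and the build mm10; the matrix headers give software version 3.0.2. Barcodes under 500 genes or 1000 UMIs, or over 15% mitochondrial UMIs, were dropped, which took out 7127 for depth and 4963 for mitochondrial share; simulated doublets (0.8% expected per 1000 barcodes) marked 6784 more. Cells were clustered with scanpy 1.11.5 (2000 variable genes, 30 principal components, Leiden resolution 1) and clusters named from fixed markers; the naming rule was loosened for 2 microglial clusters after their genes were seen. UMIs were summed per library and class, for the 6 classes with at least 20 cells in each library, and fitted with edgeR 4.0.16 (R 4.3.3): TMM factors, filterByExpr, quasi-likelihood with a term per group over all 14 libraries, two-sided, adjusted over all genes. Class pairs were fitted with library as a block. Scripts were tested on simulated data. Coordinates and lengths come from GENCODE and promoters from RefSeq. Members and gene lists were chosen with earlier results of these data known. Named genes are the 8 called members with the largest differences per contrast in microglia (3 in other classes), listed paralogs and roles, the 5 highest and lowest members and the 5 with the widest class range; others named, such as Rpl26, were picked after their values were seen. Alternatives were other scalings, filters, clusterings, cell sets, DESeq2 1.42.0, a replicate block, the library number as a covariate, and each library left out. A few genes that this rule would name are not reported here by name; they remain in the counts.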

Additional observations from a re-analysis of the deposited data

Results flagged for a closer look

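The transgene contrast of single members differed between cell classes of the same library, by a test of the difference itself in edgeR with library as a block. Between microglia and endothelial cells it differed in 79 members for SOD1G93A against nTg and in 83 for SOD1G93A/Clec7a-KO against Clec7a-KO, all more positive in microglia (20.2% and 24.3% of all genes were). Between microglia and ependymal cells it differed in 65 and 81 (17.4% and 20.1%), and between microglia and oligodendrocyte precursors in 29 and 47 (17.3% and 20.3%). Between microglia and astrocytes it differed in 7 and 2, all more negative in microglia, which is 8.14% and 2.33% of the members and below the 12.9% and 13.8% of all genes. Between astrocytes and endothelial cells it differed in 81 and 83 (11.4% and 9.55% of all genes were more positive in astrocytes), between astrocytes and ependymal cells in 81 and 81 (12.4% and 10.6%), and between oligodendrocyte precursors and endothelial cells in 6 and 64 (0.873% and 3.07%). The microglial RNA in astrocytes and oligodendrocyte precursors was higher in the transgenic libraries, and its part in these differences was not tested. Values of the Clec7a-KO and SOD1G93A/Clec7a-KO libraries, in 56 sets of 4, were examined for a library far from the others, and 0 held one. The nTg and SOD1G93A groups (n = 3 each) were not examined. The latter holds SOD1G93A replicate 3, where the deviation of Rpl26 in microglia was -2.41.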

How the results depend on the processing

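In microglia the calls of SOD1G93A against nTg and of SOD1G93A/Clec7a-KO against Clec7a-KO numbered 29 and 61 with DESeq2, 24 and 50 with TMM factors from other genes, 26 and 58 without a low-count filter, 11 and 20 with library totals, 6 and 11 in P2ry12-led and Tmem119-led clusters, and 19 to 29 and 39 to 57 with 1 library left out. Shares of all genes called are given above for library totals, the library number and the P2ry12-led clusters. For the other settings in microglia, and for left-out libraries in any class, such shares are not given. Those counts therefore do not show whether the calls of all genes moved too. Clustering without the members left out none of the genes that built the clusters, so it is no check. Of the 26 and 54 members, 16 and 36 were called in each of 23 settings, which leave out totals and the 2 cell sets added after seeing the data (the P2ry12-led clusters, where 6 and 11 of them were called, and microglia without the clusters led by another class's gene). The 23 include the clustering without the members. They also include left-out libraries of groups outside a contrast, which change it only through the shared fit. With the library number of the labels as a covariate the counts were 39 and 70, the highest of any setting, with 24 of the 26 and 54 of the 54 called again; the number runs lower in SOD1G93A than in nTg. Against endothelial cells of the same library, totals gave 40 in the first contrast, and leaving out 1 library gave 68 to 79 and 83 to 84.

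In the other classes, dropping the filter gave 9 and 1 calls in endothelial cells, 19 and 2 in ependymal cells, 2 and 1 in mural cells and 11 and 23 in oligodendrocyte precursors. DESeq2 gave 1 in ependymal cells in the second contrast, and 12 and 20 in oligodendrocyte precursors. With 1 library left out the counts were 0 to 1 and 0 to 0 in endothelial cells, 0 to 1 in both contrasts in ependymal cells, 0 to 0 and 0 to 1 in mural cells, 1 to 6 and 7 to 20 in oligodendrocyte precursors, and 37 to 54 and 59 to 72 in astrocytes. Over all barcodes without classes the difference in the members' share was 2.70 and 4.54 percentage points. That value also depends on the mix of classes in a library, whose part was not tested. In microglia alone the mean share was 10.9% in nTg and 11.3% in SOD1G93A. It was 10.5% in Clec7a-KO and 13.5% in SOD1G93A/Clec7a-KO.

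Replicate numbers are shared between groups. The 19 same-numbered pairs of libraries had correlations of -0.27 to 0.54, with a median of 0.12. The 54 other pairs had -0.63 to 0.61, with a lower median of -0.065. Correlations over 0.1 were found in 11 of the 19 same-numbered pairs and in 14 of the 54 others. Of the 14 libraries, 6 correlated best with their own number. The numbers were not taken to pair libraries, though a shared effect of the number is not excluded. The replicate block gave 30 and 64 calls in microglia, 1 in endothelial cells, 3 in ependymal cells and 9 in oligodendrocyte precursors (first contrast), and Rps27 at 0.014 in the second.

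Rplp1 in the first contrast was -0.21 in P2ry12-led clusters and -0.26 with totals, and -0.059 to 0.37 with 1 library left out. Rplp2 was -0.13 and -0.22, and -0.18 to 0.49 with 1 library left out. In the second contrast Rplp1 was -0.048 with totals. Leaving out 1 library gave -0.89 to 0.0044 for Rps27 in the first contrast, -0.25 to 0.17 for Rps27 in the second, -0.53 to 0.25 for Rps27rt in the second, and -2.03 to -0.046 for Rpl26 in the first. The cause of these changes was not tested. Rpl10l, Rpl3l, Rpl32l and Rps12l1 did not pass the low-count filter in microglia and were not tested there.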
